A study of Rattus norvegicus with 4 samples.

Results

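Genes of the extracellular matrix and of its main cell surface receptors, the collagens, laminins, fibronectin, SPARC, fibulins and integrins, were followed in rat hippocampal neuron cultures after knockdown of Gld2. Members were found by gene symbol, from a set chosen with earlier results of these data known. They were all genes of the platform annotation whose symbol marks a collagen chain, a laminin chain, an integrin subunit, fibronectin (Fn1), Sparc or a fibulin, apart from Itgam. The rule found 56 of the 14497 genes with a symbol of their own. These were 25 collagen genes, 7 laminin genes, 8 integrin alpha and 8 integrin beta subunit genes, and 5 genes for fibronectin, SPARC and fibulins. Another 3, Itgb1bp1, Itgb1bp2 and Itgb3bp, are named for binding an integrin tail and encode no integrin. All 56 were tested, with no filter on low values. The families are not complete among them, as Itga3, Itgav, Lama2, Lamb1 and Col4a2, for example, were not found by the rule. Statements on a family cover only the genes found. A probe set that the annotation gives several symbols, 1 or more of them matching the rule, was not counted, and there was 1 of these.

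Collagens are trimers of chains wound into a triple helix, and are sorted by what they build, such as fibrils, basement membrane networks or links between fibrils and cells. Laminins are trimers of an alpha, a beta and a gamma chain and, with type IV collagen, form basement membranes. Integrins are pairs of an alpha and a beta subunit that span the membrane and tie matrix proteins to the actin cytoskeleton, and the alpha subunit largely sets which matrix protein is bound. In the brain, fibrillar collagens and most basement membrane belong to meninges and vessels, while laminin and its integrin receptors also take part in neurite growth, radial glial attachment and synapse maintenance.

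Gld2, a cytoplasmic poly(A) polymerase with the gene symbol Tent2, lengthens the tails of selected mRNAs. The study compared 2 primary cultures of hippocampal neurons from rat embryos transduced with Gld2 shRNA, called knockdown cultures here, and 2 given a scrambled shRNA, called control cultures, on 4 arrays in all. Both groups carried an shRNA, and the vector, its promoter, the strain and the culture age were not given in the sources used here. Before labelling, RNA was captured on poly(U) Sepharose and eluted with heat, so a change in the amount of a transcript and a change in how well it was recovered by its tail cannot be told apart. Whether the arrays held all of the eluate or a fraction of it is not in the labels. Values are log2 RMA signals, which set no order of abundance between genes because probe sets differ in brightness.

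The targeted transcript was lower in both knockdown cultures. Tent2 stood at 9.50 and 9.35 in the knockdown cultures, against 10.73 and 10.67 in the control cultures (adjusted p = 0.000754 by limma, Benjamini-Hochberg adjustment over all genes). The array medians were 8.41 to 8.48, and all 14 neuron markers lay above the median signal of the genes tested. So did 8 of 9 astrocyte markers, 0 of 10 microglial markers and 0 of 11 endothelial markers. Gld2 shRNA replicate 2 stood farther from the controls than replicate 1, with median absolute log2 differences of 0.172 and 0.158 against 0.109 and 0.105. Within the groups this measure was 0.106 between the knockdown cultures and 0.075 between the controls. Replicate 1 was thus about as far from replicate 2 as from either control. The differences of Gld2 shRNA replicate 2 also varied with signal. Over genes in the third decile of signal its median was 0.17, against 0.02 for replicate 1, and in the sixth decile -0.13, against -0.07. Whether the cultures of a group were prepared separately is not in the labels, so the spread behind the p-values may be technical in part.

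One member changed. Of the 56 genes, 1 fell (Itga6), 0 rose and 55 did not pass the test (limma, Benjamini-Hochberg adjustment over all genes, threshold 0.05), while 11 had values above 0 and 2 below 0 at an unadjusted p under 0.05, against 9.24% and 16.2% of all genes. Among all genes tested, 2.41% were called lower and 1.69% higher, so the share of members called was not above that of the array. The higher calls were 41.2% of all calls, a share that became 29.0% with each array centred on its median and 69.9% with centring on the median of the genes tested. The median log2 difference of the members was 0.08, against -0.02 over all genes. The plot of all members shows Itga6 standing alone on the left, the collagens mostly right of 0 and the other families on both sides. The 95% intervals quoted below are for single genes and are not adjusted for the number tested, so an interval can lie off 0 where the adjusted test did not pass.

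**Figure D1:**
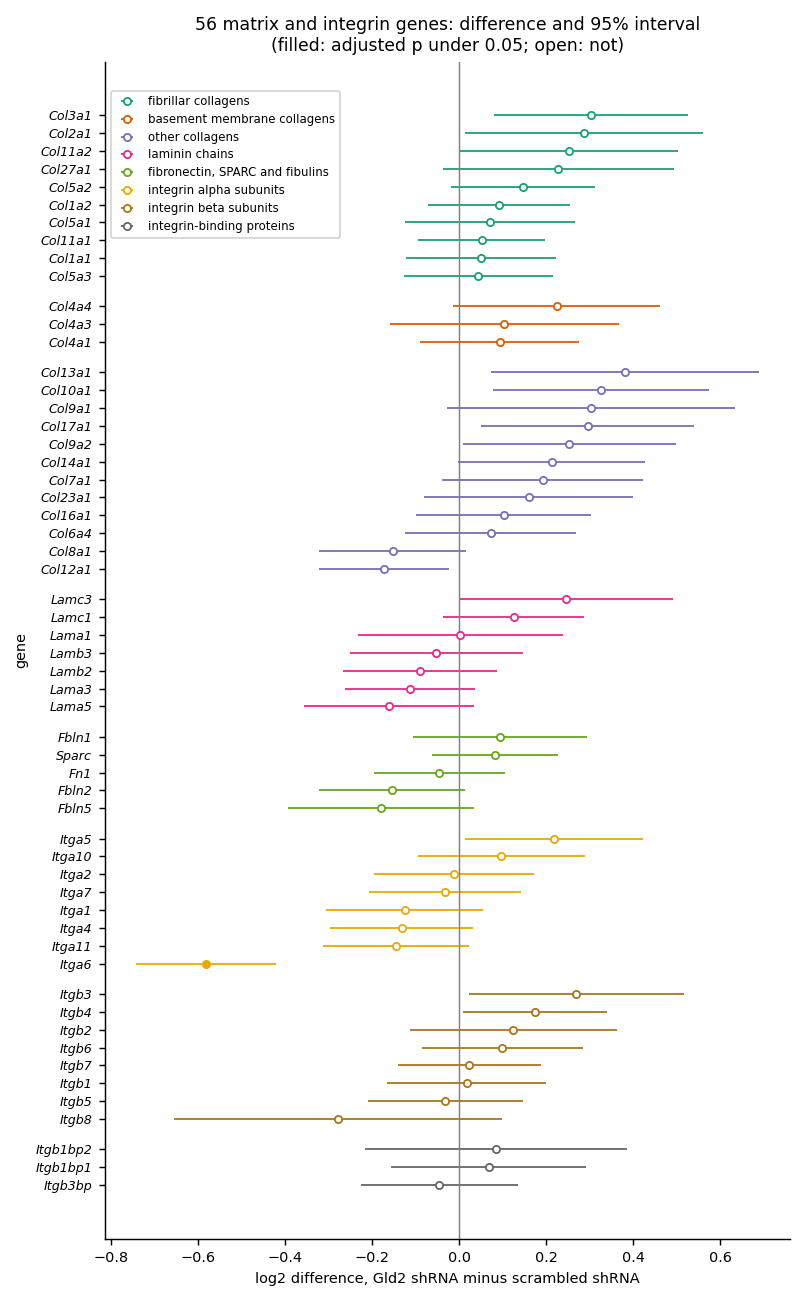
Log2 difference (Gld2 shRNA minus scrambled shRNA, horizontal axis) of the 56 genes, listed down the page by family, with 95% confidence intervals from the moderated standard error. Itga6 (-0.58) is the filled point, the 1 gene past the adjusted threshold, and 23 of 25 collagens lie right of 0.

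Itga6 encodes integrin alpha 6, the subunit that pairs with beta 1 or beta 4 to form receptors for laminin. Its log2 RMA values were 9.83 and 9.74 in the knockdown cultures, against 10.37 and 10.36 in the control cultures. Both knockdown cultures lay below both controls, and the gap between the groups was several times the gap within either. The means were 9.78 ± 0.0693 in the knockdown cultures and 10.37 ± 0.0113 in the control cultures (SD, n = 2 each). The log2 difference was -0.58 with a standard error of 0.0654 and a 95% interval from -0.74 to -0.42, which put Itga6 at 66.8% of the control level (adjusted p = 0.0112 by limma). It no longer passed without scrambled shRNA replicate 1 (adjusted p = 0.164, limma), without replicate 2 of that group (0.143) and without moderation of the variance (0.241), while the difference stayed between -0.63 and -0.48 in all 15 alternatives.

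Neither partner subunit of alpha 6 passed the test. Itgb1, the beta subunit shared by most matrix-binding integrins, had values of 11.31 and 11.16 in the knockdown cultures and 11.19 and 11.25 in the control cultures. The groups overlapped, and the difference of 0.02 had a 95% interval from -0.17 to 0.20. Itgb4, the other partner, stood at 8.62 and 8.59 in the knockdown cultures and at 8.49 and 8.38 in the control cultures. Both knockdown values were above both controls, at a difference of 0.17 that did not pass (adjusted p = 0.184, limma). Itga7, another alpha subunit that binds laminin through beta 1, was at -0.03 (95% interval -0.21 to 0.14). Within each culture the log2 ratio of Itga6 to Itgb1 was lower by 0.54 to 0.66 in any knockdown culture than in any control, with a mean change of -0.60. For Itga6 to Itgb4 the mean change was -0.76. An exact permutation test over the cultures gave p = 0.333 for each ratio, the smallest that 2 against 2 cultures allow in a two-sided test, so it cannot decide. The pairs were formed because Itga6 was called, so both ratios carry its own difference of -0.58 and are a description only.

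**Figure D2:**
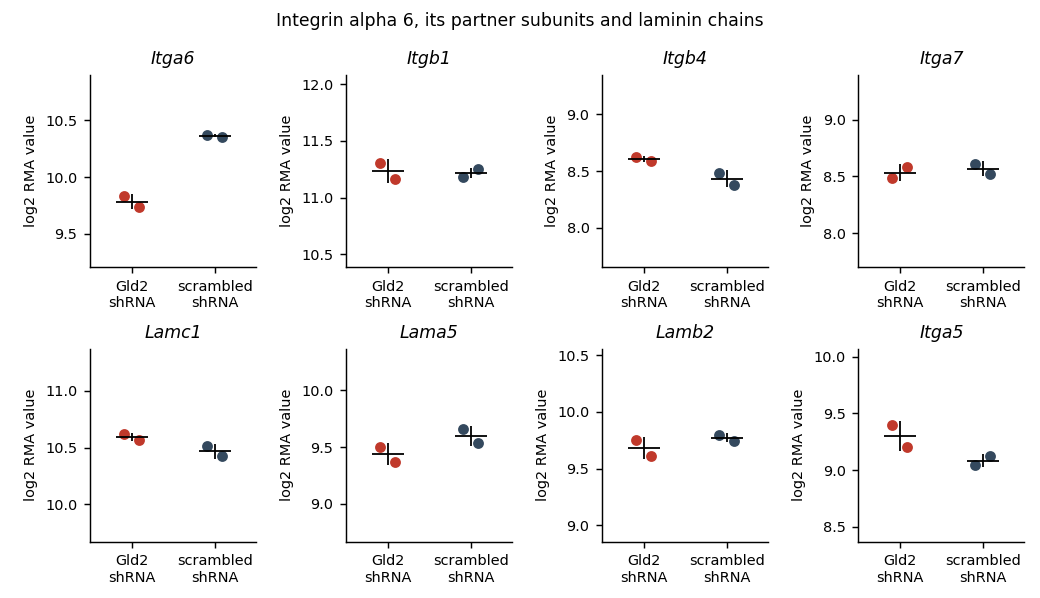
Log2 RMA values (vertical axis, the same span in each panel) in the Gld2 shRNA (red, left) and scrambled shRNA (dark, right) cultures, with the mean as a bar and the SD as a line (n = 2 each). Itga6 is lower in both knockdown cultures, while Itgb1 and Itga7 overlap between the groups.

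The remaining alpha subunits among the members had small differences. Itga5, the alpha subunit of the main fibronectin receptor, read 9.40 and 9.21 in the knockdown cultures and 9.04 and 9.12 in the control cultures. These groups did not overlap, at a difference of 0.22 (95% interval 0.01 to 0.42, adjusted p = 0.179 by limma). The subunits of the collagen receptors, Itga1, Itga2, Itga10 and Itga11, were at -0.13, -0.01, 0.10 and -0.14, none past the threshold. Itga4, whose pairs with beta 1 or beta 7 bind VCAM-1 and fibronectin, had 6.67 and 6.71 in the knockdown cultures, below 6.88 and 6.77 in the control cultures, a difference of -0.13. Of these genes, Itga1 and Itga2 are neighbours on chromosome 2, with no coding gene between them in the RefSeq assembly GRCr8.

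Among beta subunits, 6 of 8 had values above 0 and none passed. Itgb3, which pairs with alpha v and with the platelet subunit alpha IIb, was at 8.03 and 8.30 in the knockdown cultures and 7.85 and 7.94 in the control cultures, a difference of 0.27 (adjusted p = 0.173, limma). Itgb8, whose pair with alpha v activates latent TGF-beta in the developing brain, had 9.07 and 8.60 in the knockdown cultures and 9.19 and 9.05 in the control cultures. Replicate 2 alone was far below the controls, so the difference of -0.28 had a wide 95% interval from -0.66 to 0.10. Itgb2, the beta subunit of leukocyte integrins, was at 0.12, and Itgb6, Itgb7 and Itgb5 were at 0.10, 0.02 and -0.03. Of the genes named for binding integrins, Itgb1bp1, which encodes a regulator of integrin beta 1, was at 0.07. Itgb1bp2, the muscle chaperone melusin, was at 0.08 and Itgb3bp, which encodes a centromere protein, at -0.05, with both groups overlapping for all 3.

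The laminin chains, ligands of alpha 6 integrins, were not called either. Of 7 genes, 3 had values above 0 and 4 below 0, with a median of -0.05. Lamc1, the gamma chain of most laminins, had 10.62 and 10.57 in the knockdown cultures, against 10.51 and 10.42 in the control cultures. All values of the knockdown exceeded both controls, yet the difference of 0.12 was small (95% interval -0.04 to 0.29). Lama5, an alpha chain of many mature basement membranes, those of vessels among them, had the opposite arrangement, 9.50 and 9.37 in the knockdown cultures, below 9.66 and 9.53 in the control cultures (difference -0.16, adjusted p = 0.262 by limma). Lamc3, a gamma chain of meningeal and retinal basement membrane, was at 0.25 (adjusted p = 0.196), Lamb2 at -0.09, Lama3 at -0.11, Lamb3 at -0.05 and Lama1 at 0.00. The chains Lama3 and Lamb3 belong to the laminin of skin and other epithelia.

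Collagen genes leaned one way without any of them passing. Of 25, 23 had a log2 difference above 0, against 46.2% of all genes, yet 0 rose and 0 fell over the adjusted threshold. At an unadjusted p under 0.05 the collagens numbered 7 above 0 and 1 below, against 9.24% and 16.2% of all genes. The groups did not overlap for 15 collagens that were higher in the knockdown cultures and 2 that were lower, while over all genes 24.0% were higher and 34.5% lower in this way. The median difference was 0.16, with a range from -0.17 to 0.38. For the 31 other members the median was -0.01.

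The size of that lean differed between the knockdown cultures. Against the control mean, the median collagen stood at 0.07 in Gld2 shRNA replicate 1 and at 0.26 in replicate 2. Replicate 2 was above replicate 1 for 24 of 25 collagens, against 48.8% of all genes and 14 of the 31 other members. Of the collagens 22 lay below the median signal of the genes tested, as did 18 of the other members. The same order held for 10 of 11 endothelial and 9 of 10 microglial markers, all below that median. It held for 3 of 9 mural and 1 of 9 astrocyte markers, of which 5 and 1 lay below it. Between the scrambled shRNA cultures no such order was present in the collagens, with replicate 2 above replicate 1 for 11 of 25. Without Gld2 shRNA replicate 2 the collagens above 0 numbered 18, at a median difference of 0.07. Without replicate 1 they numbered 23, at a median difference of 0.26. With each array centred on its median 5 collagens were called higher, Col3a1, Col9a1, Col10a1, Col13a1 and Col17a1. With a variance prior that varies with level 2 were, Col3a1 and Col13a1. Calls also rose over the whole array in these settings, with 558 and 621 of 14497 genes called higher, against 245 as reported. Cyclic loess, either centring and removal of the gene length trend all left 23 of 25 above 0, with medians from 0.14 to 0.25.

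Signal level was set beside this pattern, since replicate 2 varied with it. Of the 25 collagens, 9 lay in deciles 3 and 4 of signal, where the median of all genes in replicate 2 was 0.17 and 0.11, and 13 in decile 5, where it was -0.06. Set beside the median of all genes in the same decile, 23 of 25 collagens were above it, by a median of 0.19. By culture that excess was 0.10 in Gld2 shRNA replicate 1 (21 of 25 above) and 0.25 in replicate 2 (23 of 25 above). Deciles are coarse here, as the median difference of all genes went from 0.05 in decile 4 to -0.06 in decile 5. The part of signal level in the collagen values was not tested. No detection calls were among the sources used here, so how far these probe sets stood above background was not tested.

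**Figure D3:**
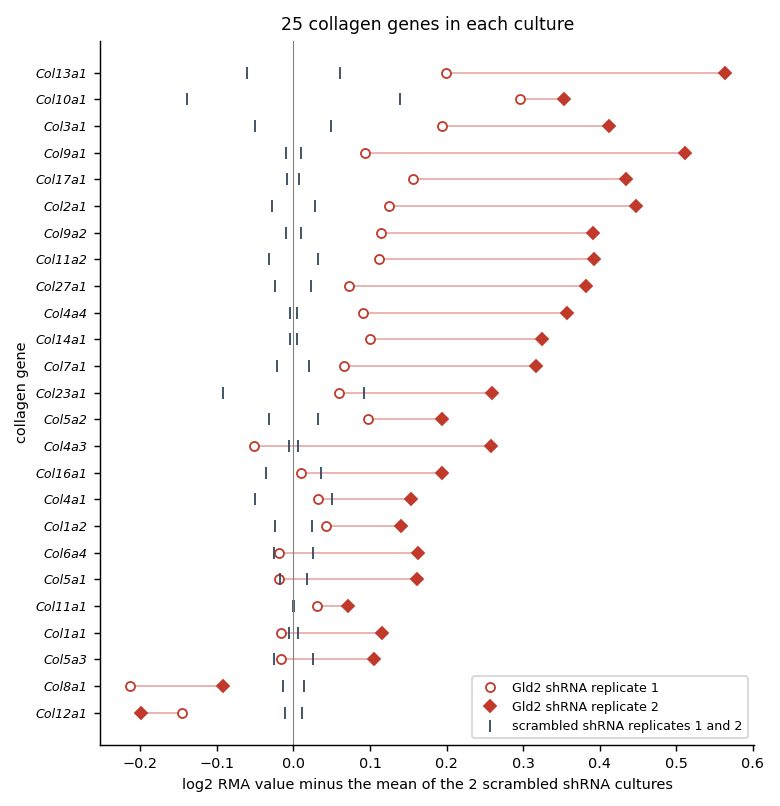
Log2 RMA value of each of 25 collagen genes minus the mean of the scrambled shRNA cultures (horizontal axis), with Gld2 shRNA replicate 1 as open circles, replicate 2 as filled diamonds and the scrambled shRNA cultures as vertical ticks. Replicate 2 lies right of replicate 1 for 24 of the 25 genes, Col12a1 being the exception.

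The fibril-forming collagens were all above 0, 10 of 10, with a median of 0.12. Col3a1, the chain of type III collagen found with type I around vessels, had 8.68 and 8.90 in the knockdown cultures and 8.53 and 8.43 in the control cultures. Both knockdown values exceeded both controls, and the difference of 0.30 (95% interval 0.08 to 0.53) had the smallest adjusted p of any collagen, 0.118 by limma. Col2a1, the chain of cartilage type II collagen, was at 0.29, and Col11a2 and Col27a1, of cartilage fibrils, at 0.25 and 0.23. Col1a1 and Col1a2, whose products join in type I collagen, were nearer 0. Col1a1 read 9.77 and 9.91 in the knockdown cultures and 9.80 and 9.78 in the control cultures, so the groups overlapped (difference 0.05). Col1a2 was at 0.09. Col5a1, Col5a2 and Col5a3, chains of type V collagen that sets fibril width, were at 0.07, 0.15 and 0.04, and Col11a1 was at 0.05. Col3a1 and Col5a2 lie next to each other on chromosome 9 with no coding gene between them.

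Of the remaining collagens, Col13a1 had the highest difference. Col13a1, a transmembrane collagen of neuromuscular junctions and other adhesion sites, had 8.41 and 8.78 in the knockdown cultures and 8.15 and 8.27 in the control cultures. The groups did not overlap, but the knockdown cultures differed from each other about as much as from the controls (difference 0.38, 95% interval 0.07 to 0.69, adjusted p = 0.140 by limma). Col10a1, a network-forming collagen of growth plate cartilage, had knockdown cultures that lay close together, at 7.93 and 7.99, against 7.49 and 7.77 in the control cultures (difference 0.33, adjusted p = 0.126 by limma). Further transmembrane collagens, Col17a1 of hemidesmosomes, where alpha 6 beta 4 integrin also sits, and Col23a1, were at 0.29 and 0.16. Col9a1 and Col9a2, which coat cartilage fibrils, were at 0.30 and 0.25, and Col14a1 and Col16a1, of the same fibril-associated class, at 0.21 and 0.10. Col7a1, of the anchoring fibrils of skin, was at 0.19 and Col6a4, a chain of beaded filaments, at 0.07. Col6a4 had 3 probe sets, with differences of -0.04, 0.23 and 0.07, and the brightest was used.

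The exceptions were Col12a1 and Col8a1. Col12a1, a fibril-associated collagen of dense connective tissue, had 8.53 and 8.47 in the knockdown cultures, below 8.68 and 8.66 in the control cultures, a difference of -0.17 (adjusted p = 0.160, limma). Col8a1, a short-chain collagen of vessel walls and the cornea, had 8.52 and 8.65 in the knockdown cultures, below 8.75 and 8.72 in the control cultures, at -0.15 (adjusted p = 0.227, limma). In neither gene did the groups overlap, both knockdown cultures lying below both controls.

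Type IV collagen, the network of basement membranes, was represented by 3 chains. Col4a1, of nearly all basement membranes, had 8.85 and 8.97 in the knockdown cultures and 8.86 and 8.76 in the control cultures, a difference of 0.09 with overlapping groups. Col4a3 and Col4a4, chains of the kidney and ear form, were at 0.10 and 0.22. Col4a3 read 8.01 and 8.32 in the knockdown cultures and 8.07 and 8.06 in the control cultures, and Col4a4 read 8.19 and 8.45 in the knockdown cultures and 8.10 and 8.09 in the control cultures. In both, replicate 2 was the high one.

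Col4a3 and Col4a4 are divergent genes on chromosome 9 whose starts are 413 bp apart, so their promoter windows overlap. The windows are shown because they are the one case among the members of a shared start region. They run from 250 bases before to 50 after each start in the RefSeq promoter table (GRCr8), 5′ to 3′ on each gene's own strand, at chr9:91323740-91324039 (plus strand) for Col4a3 and chr9:91323528-91323827 (minus strand) for Col4a4. Capitals mark the 88 bases that both windows hold, read on opposite strands.
Col4a3: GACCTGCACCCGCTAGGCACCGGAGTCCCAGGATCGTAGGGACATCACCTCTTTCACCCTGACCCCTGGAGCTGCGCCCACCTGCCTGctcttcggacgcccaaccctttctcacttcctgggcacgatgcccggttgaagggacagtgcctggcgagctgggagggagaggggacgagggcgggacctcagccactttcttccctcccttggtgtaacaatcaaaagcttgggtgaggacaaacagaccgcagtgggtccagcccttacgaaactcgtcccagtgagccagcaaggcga
Col4a4: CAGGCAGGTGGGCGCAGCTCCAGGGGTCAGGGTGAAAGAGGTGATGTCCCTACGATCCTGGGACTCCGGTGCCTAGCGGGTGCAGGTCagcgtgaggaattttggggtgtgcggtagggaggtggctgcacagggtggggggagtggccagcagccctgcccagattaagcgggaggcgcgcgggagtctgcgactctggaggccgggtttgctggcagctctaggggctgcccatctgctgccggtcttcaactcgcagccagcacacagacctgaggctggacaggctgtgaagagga
Neither window holds TATAAA or the core of the interferon-stimulated response element (GAAA, any 2 bases, GAAA) on either strand.

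Promoter windows were found for 43 of the 56 members, 20 of them collagens. Itga6, the member called, was not among the 43, so its promoter was not searched. The interferon-stimulated response element core, searched on both strands, was in 0 of the 43, against 3.77% of 27457 promoters of the table (the first entry of each gene). At so low a share, 0 of 43 carries little information. TATAAA, also on both strands, was in 5 members (11.6%), against 14.3% of all promoters. Those 5 were Col13a1, Col10a1, Col17a1, Col1a2 and Itgb7, with differences of 0.38, 0.33, 0.29, 0.09 and 0.02. Of the 20 collagens with a window 4 (20%) held it. Col3a1 and Col2a1, at 0.30 and 0.29, had no window. The windows of Col9a1 and Col9a2, at 0.30 and 0.25, held no TATAAA. The windows of the collagens with the highest differences, Col13a1 and Col10a1, are shown for that reason, with TATAAA in capitals, at chr20:30466751-30467050 (minus strand) and chr20:39737286-39737585 (plus strand).
Col13a1: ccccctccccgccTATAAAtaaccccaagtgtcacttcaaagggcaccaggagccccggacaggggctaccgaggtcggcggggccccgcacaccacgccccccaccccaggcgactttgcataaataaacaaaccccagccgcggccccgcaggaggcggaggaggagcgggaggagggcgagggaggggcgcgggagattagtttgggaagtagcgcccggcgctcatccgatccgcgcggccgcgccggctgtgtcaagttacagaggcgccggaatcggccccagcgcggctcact
Col10a1: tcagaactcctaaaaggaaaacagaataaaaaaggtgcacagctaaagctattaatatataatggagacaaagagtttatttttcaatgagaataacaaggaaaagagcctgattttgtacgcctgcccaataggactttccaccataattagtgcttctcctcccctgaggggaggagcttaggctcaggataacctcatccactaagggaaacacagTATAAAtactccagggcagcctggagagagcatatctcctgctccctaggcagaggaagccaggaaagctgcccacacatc
In Col10a1 the motif begins 31 bases before the annotated start and in Col13a1 237 bases before it. A match is a description of the sequence only.

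Fibronectin and the other matrix glycoproteins among the members varied little. Fn1, the fibronectin gene, stood at 12.24 and 12.19 in the knockdown cultures and at 12.28 and 12.25 in the control cultures. The lowest control and the highest knockdown value nearly met, at a difference of -0.05 (95% interval -0.20 to 0.11). Sparc, a secreted collagen-binding glycoprotein that astrocytes release, had 13.21 and 13.20 in the knockdown cultures and 13.12 and 13.12 in the control cultures. Its groups did not overlap, yet the difference was 0.08 (95% interval -0.06 to 0.23). The fibulins, which bind elastic fibres and basement membranes, were at 0.09 (Fbln1), -0.15 (Fbln2) and -0.18 (Fbln5), none past the threshold. In all 5 of these genes replicate 2 of the knockdown was below replicate 1, the reverse of the collagens. These 5 lay in deciles 8 to 10 of signal, where the medians of all genes had the same order. Those medians were -0.11, -0.07 and -0.004 in replicate 2, against -0.05, -0.03 and 0.01 in replicate 1.

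Among other genes of matrix assembly and adhesion, taken from 5 lists, 121 were measured, of which 6 rose, 2 fell and 113 did not pass. That is 6.61% called, against 4.1% of all genes, and 27.3% had an unadjusted p under 0.05, against 25.4% of all genes. The lists were chosen with earlier results of these data known, so these shares are a description only. No test set the lists against the members. Of 16 further matrix and adhesion receptors 3 rose and 0 fell. Vcam1, the endothelial and glial ligand of alpha 4 integrins, had 10.92 and 10.78 in the knockdown cultures, against 9.72 and 9.53 in the control cultures, and rose 2.34-fold (log2 difference 1.23, adjusted p = 0.00193 by limma). Icam1, the ligand of beta 2 integrins on leukocytes, had 11.06 and 11.05 in the knockdown cultures and 10.47 and 10.44 in the control cultures, a rise of 1.52-fold. Sdc4, a heparan sulfate proteoglycan that works with integrins at focal adhesions, rose 1.35-fold. The ligand genes Vcam1 and Icam1 rose. Itga4, Itgb1, Itgb7 and Itgb2, which encode subunits of their receptors, were at -0.13, 0.02, 0.02 and 0.12 and did not pass. Of these, Itga4, Itgb7 and Itgb2 were dim, at percentiles 12.5, 26.3 and 20.8 of signal, against 69.4 for Vcam1 and 78.7 for Icam1.

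Among 24 genes of collagen processing and crosslinking 1 rose and 0 fell. Loxl3, a lysyl oxidase that crosslinks collagen and elastin, had 10.20 and 10.13 in the knockdown cultures, against 9.22 and 9.22 in the control cultures, and rose 1.93-fold (adjusted p = 0.00138, limma). Its relatives Lox and Loxl2 were at -0.26 and -0.31 and did not pass. Of 25 proteases and inhibitors 2 rose and 1 fell. Timp1, an inhibitor of matrix metalloproteinases, had 12.74 and 12.75 in the knockdown cultures, against 11.91 and 12.02 in the control cultures, and rose 1.72-fold. Plau, the urokinase gene, rose 1.33-fold, and Timp3, an inhibitor that is held in the matrix, fell 1.28-fold, with 11.60 and 11.60 in the knockdown cultures and 12.01 and 11.90 in the control cultures. Of 30 other matrix glycoproteins and proteoglycans 1 fell, Agrn, the basement membrane proteoglycan that organises synapses (11.22 and 11.17 in the knockdown cultures, against 11.58 and 11.53 in the control cultures), and 0 rose. The 26 genes of integrin adhesion and signalling had 0 calls in either direction by limma, with 3 at an unadjusted p under 0.05. Vcam1 and Loxl3 held their calls in all alternatives except without moderation, and Timp1 and Icam1 also lost theirs without scrambled shRNA replicate 1. Icam1 lost it without scrambled shRNA replicate 2 as well. The calls of Sdc4, Plau, Timp3 and Agrn rested on 3 of the 4 cultures, being lost without Gld2 shRNA replicate 2 or without either control, and held in 7 (Timp3) to 10 (Sdc4) of the alternatives.

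**Figure D4:**
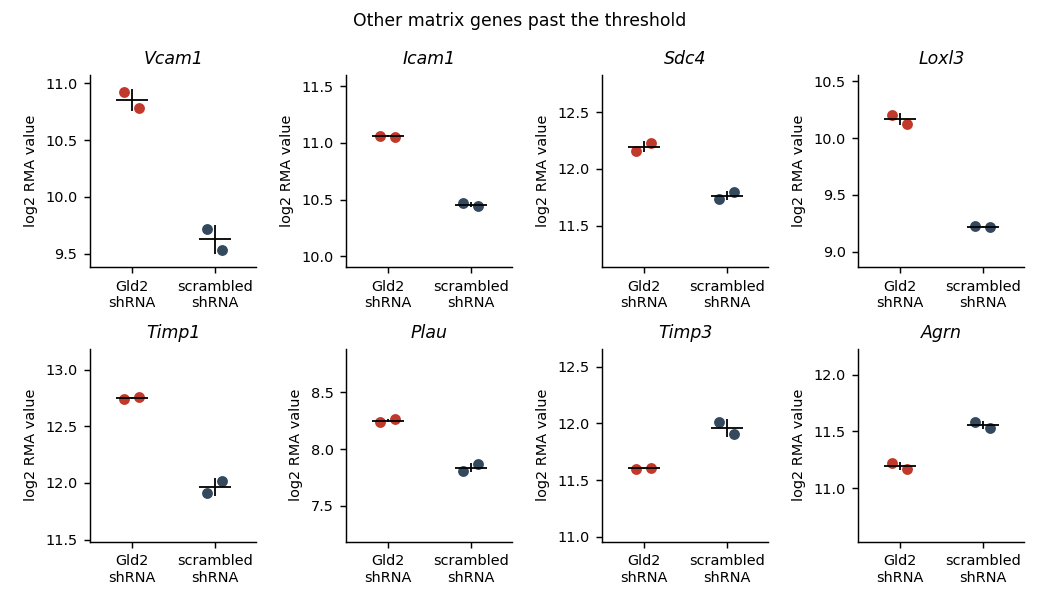
Log2 RMA values (vertical axis, the same span in each panel) of the 8 other matrix and adhesion genes past the threshold, in the Gld2 shRNA (red, left) and scrambled shRNA (dark, right) cultures, with mean and SD (n = 2 each). Vcam1, Icam1, Sdc4, Loxl3, Timp1 and Plau are higher and Timp3 and Agrn lower in both knockdown cultures.

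Markers of cells that make matrix are given beside these values. In a culture of mixed cells, fewer cells of a type and less RNA per cell cannot be told apart. Over all genes, 9.24% were higher and 16.2% lower at an unadjusted p under 0.05 (limma), the shares to set beside the counts below. Of 9 measured fibroblast and meningeal markers (12 listed) 0 were called by limma and 0 had an unadjusted p under 0.05, and their summed linear signal was 5958 and 5599 in the knockdown cultures and 6029 and 6001 in the control cultures. Endothelial markers (11 measured) had 0 calls by limma and 3 at an unadjusted p under 0.05, all higher. They summed to 1922 and 2197 in the knockdown cultures and to 1886 and 1925 in the control cultures. Of 9 mural markers 7 were above 0, at a list median of 0.06, and at an unadjusted p under 0.05 there were 2 higher and 2 lower. Tagln, an actin-binding protein of smooth muscle, rose (0.37). Notch3 and Pdgfrb, the 2 markers below 0, were at -0.35 and -0.34, below both controls, and did not pass. The sums were 7761 and 7436 in the knockdown cultures and 6969 and 7066 in the control cultures, but without Tagln 4312 and 4220 in the knockdown cultures and 4414 and 4468 in the control cultures. Of 9 astrocyte markers, Gja1, the gap junction protein connexin 43, fell (-0.39), while 5 of the 9 were above 0, at a list median of 0.05, with sums of 45421 and 43837 in the knockdown cultures and 44150 and 44832 in the control cultures. Microglial markers had 9 of 10 values above 0 and 0 calls by limma, with 3 at an unadjusted p under 0.05, all higher. Their sums were 2672 and 2880 in the knockdown cultures against 2483 and 2542 in the control cultures. Of 14 neuron markers, Prox1, a transcription factor of dentate granule cells, fell (-0.59). Of the 14, 11 were below 0 and 4 had an unadjusted p under 0.05, all lower, and the sums were 88539 and 88436 in the knockdown cultures and 92618 and 92329 in the control cultures. Of 8 oligodendrocyte lineage and 7 radial glial and dividing cell markers 0 were called by limma. At an unadjusted p under 0.05 there were 1 (lower) and 2 (1 higher and 1 lower). The calls of Tagln, Gja1 and Prox1 held in 8, 9 and 11 of the 15 alternatives. All were lost without either control culture, and those of Tagln and Gja1 also without Gld2 shRNA replicate 2. The part of these cell types in the fall of Itga6 and in the collagen values was not tested.

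Gene length was set beside the members because long genes read lower in the knockdown across the array. The members are long, with a median genomic span of 63395 bp in the RefSeq table, against 18043 bp over all genes. Across the 56 members Spearman's rho between difference and span was -0.18, against -0.32 across 14472 genes with a span, given as a description of genes that share the same 4 arrays. With the length trend removed Itga6 was at -0.48 (adjusted p = 0.0130, limma). The part of gene length in the fall of Itga6 was not tested.

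**Figure D5:**
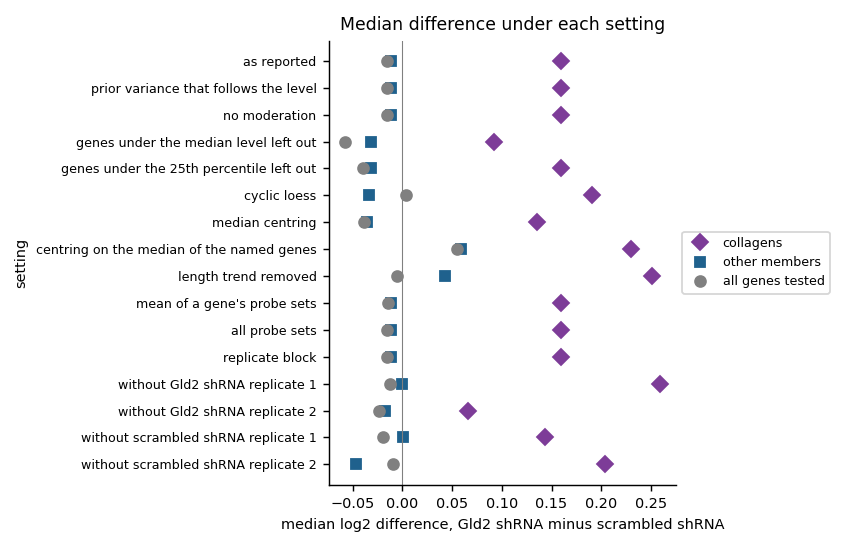
Median log2 difference (Gld2 shRNA minus scrambled shRNA, horizontal axis) of the collagens, the other members and all genes tested, under the setting reported and each alternative. The collagen median stays right of 0 throughout, from 0.07 without Gld2 shRNA replicate 2 to 0.26 without replicate 1, and the setting without genes under the median level holds only 3 collagens.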

How the data were processed

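Whole-transcript Affymetrix arrays measured RNA eluted from poly(U) Sepharose, labelled as poly(A) RNA, in 4 cultures. Per the submitters' processing notes, the deposited log2 values were made by the authors with RMA and the affy package. Settings, versions and genome build were not given in the sources used here. Values from 3.23 to 14.3 place them on that scale. They were not normalized again. With so few arrays the precision is low.

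Of 28826 probe sets, 15209 had 1 gene symbol, 306 several and 13311 none, and 15178 matched the RefSeq table of GRCr8 by gene identifier. Where a gene had several probe sets (494 genes), the brightest by mean was kept, which left 14497 genes. Groups were compared by two-sided tests in limma 3.58.1 (lmFit, eBayes; R 4.3.3), and p-values were adjusted by Benjamini-Hochberg over all genes. There were 2 residual degrees of freedom, and moderation added 3.96. On simulated data for this comparison (14497 genes), 2% of genes changed 1.25-fold, 76% at 1.5-fold and 100% at 2-fold were recovered. The simulation drew independent noise from the fitted variance prior, with 50 genes changed at each size. It had no shift with signal such as that of Gld2 shRNA replicate 2, so these shares hold for that simpler setting only. No set test was run. The members and gene lists were chosen with earlier results of these data known. Named genes were Tent2, members and list genes past the threshold, their partners, and members of each family by p and signal. The remaining members were added to account for all of them.

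The alternatives tried were a variance prior that varies with level, no moderation, filters at the median and 25th percentile of level, cyclic loess, centring each array on its median, removal of the gene length trend (lowess, span 0.3), averaging a gene's probe sets, testing unnamed probe sets too, a replicate block taken from the last digit of each title, and leaving out each culture. Centring each array on the median of the 14497 genes tested, in place of all probe sets, was chosen after seeing the data. Leaving out a culture leaves 1 in its group, which is assumed to vary like the other group.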

Additional observations from a re-analysis of the deposited data

How the results depend on the processing

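Itga6 kept its sign in all 15 alternatives and its call in 12. The members called higher, 0 as reported, numbered 5 with median centring and 2 with a variance prior that varies with level, and ran from 0 to 13 without 1 culture, the 13 being without Gld2 shRNA replicate 1. The members called lower, 1 as reported, numbered 0 without moderation and ran from 0 to 3 without 1 culture. The members' median, 0.08 as reported, was 0.15 with centring on the median of the genes tested and with the length trend removed, and 0.03 under the median filter, and ran from 0.03 to 0.12 without 1 culture. Over all genes, 245 were higher and 349 lower as reported. The higher and lower genes numbered 621 and 1611 with a variance prior that varies with level, 1 and 0 without moderation (limma's linear model, with 2273 genes and 3 members at an unadjusted p under 0.05), 558 and 1367 with median centring and 370 and 378 with cyclic loess. The lower genes numbered 1287 and 949 with filters at the median and the 25th percentile of level, 94 with centring on the median of the genes tested and 116 over all probe sets. Without 1 culture the higher genes ran from 82 to 1283 and the lower genes from 3 to 1406. The cause of these shifts was not tested.

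The titles end in a number, and the labels do not say whether same-numbered cultures share a preparation. The correlation between the deviations of same-numbered cultures was 0.143 over 14497 genes. With these numbers as a replicate block 233 genes were higher and 332 lower, and Itga6 had an adjusted p of 0.0170 in limma. Timp3 (0.0535) and Tagln (0.0516) lost their calls under it. Of 973 values of 68 named genes under the alternatives, 42 had another sign than reported, in 19 genes, none of them past the threshold in either setting. The median filter left 16 of the 56 members, 3 of them collagens. Without detection calls, signal over background cannot be given for the dim collagens.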
